A study of Rattus norvegicus with 24 samples.

Results

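The xenobiotic metabolizing enzymes were measured in lung and blood of rats that had inhaled crystalline silica. They were taken as the probes whose symbol in the deposited tables placed them in 1 of 9 families: cytochrome P450 families 1 to 4 (CYP), flavin-containing monooxygenases (FMO), aldo-keto reductases (AKR), aldehyde dehydrogenases (ALDH), epoxide hydrolases (EPHX), carboxylesterases (CES), glutathione S-transferases (GST), UDP-glucuronosyltransferases (UGT) and sulfotransferases (SULT). Within the families this choice used names alone, but the families were chosen with earlier results of these data known. It held 121 of the 21792 probes on the array. Male CDF Fisher 344 rats, a laboratory strain whose age the labels give as 3 months without saying at which point, breathed either silica at 15 mg/m3 or air for 6 hours per day on 5 days. They were killed 32 weeks after the last exposure. Each of the 12 rats gave 1 lung and 1 blood RNA sample, so there were 6 silica lungs, 6 air lungs, 6 silica bloods and 6 air bloods, each on an Illumina BeadChip. Silica dust is a cause of lung inflammation and fibrosis in exposed people and animals.

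These enzymes act in sequence on foreign chemicals and on many of the body's own lipids, steroids and aldehydes. P450s add oxygen with electrons that P450 reductase draws from NADPH, FMOs add oxygen with NADPH directly, and reductases, dehydrogenases, hydrolases and esterases open or convert reactive groups. Transferases then attach glutathione, glucuronic acid or sulfate, which makes the products easier to excrete. In the lung, club cells of the airways and alveolar type 2 cells are known for their P450s. The receptor Ahr induces enzymes such as Cyp1a1 through a DNA motif called the xenobiotic response element, and the factor Nfe2l2 induces many transferases through the antioxidant response element.

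Signal was detected (detection p under 0.05) for 11013 to 11733 probes on the lung arrays and for 7498 to 8469 on the blood arrays. On the first principal component of the lung arrays (49.8% of the variance) the silica and air groups lay apart, while in blood 3 arrays (air replicates 2 and 6 and silica replicate 6) stood apart from the rest. Levels are given as log2 of the background-corrected, quantile-normalized signal, with an offset of 16 that compresses differences of dim probes. A member was tested where it was detected on at least 6 of the 12 arrays of a tissue. That held for 65 members in lung and 33 in blood, 30 of them in both. Another 53 members were tested in neither tissue, and 33 of these were detected on no array. The 33 included 18 of the 48 P450 members, among them Cyp1a1 and Cyp1a2, and 5 of the 13 UGT members, among them Ugt1a1. Aldh3a1 was also detected on no array. Some families hold near-identical genes, and cross-hybridisation between them could not be checked because probe sequences were not used here. Of the members, 115 could be tied to a current RefSeq gene. Gstp1 and Gstp2 were 2 probes of 1 such gene, as were Cyp4a1 and Cyp4a10, and Cyp3a1 and Cyp3a3. Members named outside the fixed naming rule were chosen after their values were seen.

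Promoter sequences are given for 5 members that passed the lung test, chosen after their values were seen: Cyp4b1, Fmo1, Fmo2 and Gsta4 are 4 of the 6 that fell with no overlap between the groups, and Gsto1 was the one member that rose. The other 2 of the 6, Cyp2d22 and Cyp2b15, are not shown and hold neither motif described here. Each runs 5′ to 3′ from 250 bases before to 50 bases after the annotated start, from RefSeq on the build GRCr8, whose promoter table matched 100 members. Capitals mark GCGTG, the core of the xenobiotic response element, or TGACNNNGC, the core of the antioxidant response element, on either strand, with overlaps allowed.
Cyp4b1 (chr5:134393067-134393366, minus strand): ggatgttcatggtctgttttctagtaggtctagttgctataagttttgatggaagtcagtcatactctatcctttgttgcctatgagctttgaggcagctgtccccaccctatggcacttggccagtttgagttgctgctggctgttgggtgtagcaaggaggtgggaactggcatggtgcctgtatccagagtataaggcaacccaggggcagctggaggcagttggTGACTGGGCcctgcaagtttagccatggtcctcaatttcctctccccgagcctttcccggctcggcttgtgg
Fmo1 (chr13:77747617-77747916, minus strand): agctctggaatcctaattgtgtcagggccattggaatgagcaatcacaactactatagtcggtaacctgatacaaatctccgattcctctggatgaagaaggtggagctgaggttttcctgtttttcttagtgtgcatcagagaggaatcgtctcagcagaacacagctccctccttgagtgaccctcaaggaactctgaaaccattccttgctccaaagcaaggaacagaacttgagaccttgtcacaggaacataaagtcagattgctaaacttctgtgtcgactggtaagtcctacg
Fmo2 (chr13:77777485-77777784, minus strand): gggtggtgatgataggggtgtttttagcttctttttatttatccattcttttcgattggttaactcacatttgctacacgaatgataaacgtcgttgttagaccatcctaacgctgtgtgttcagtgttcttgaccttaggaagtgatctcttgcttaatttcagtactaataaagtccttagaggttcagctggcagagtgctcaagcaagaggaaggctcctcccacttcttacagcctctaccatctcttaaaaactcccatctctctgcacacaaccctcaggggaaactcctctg
Gsta4 (chr8:87947015-87947314, plus strand): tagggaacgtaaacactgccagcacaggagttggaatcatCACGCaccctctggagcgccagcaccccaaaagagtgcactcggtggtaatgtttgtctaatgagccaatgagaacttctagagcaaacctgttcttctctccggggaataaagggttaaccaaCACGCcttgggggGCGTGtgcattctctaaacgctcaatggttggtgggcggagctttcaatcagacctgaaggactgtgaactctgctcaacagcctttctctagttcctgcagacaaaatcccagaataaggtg
Gsto1 (chr1:256662281-256662580, plus strand): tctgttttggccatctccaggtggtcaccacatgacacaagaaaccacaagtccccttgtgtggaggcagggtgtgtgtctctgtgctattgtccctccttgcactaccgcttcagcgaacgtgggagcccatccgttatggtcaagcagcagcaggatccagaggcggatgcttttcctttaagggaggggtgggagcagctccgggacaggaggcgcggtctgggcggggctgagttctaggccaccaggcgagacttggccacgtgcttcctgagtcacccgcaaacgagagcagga
The Cyp4b1 window held 1 TGACNNNGC match and no GCGTG. The Gsta4 window held 3 GCGTG matches and no TGACNNNGC, and the Fmo1, Fmo2 and Gsto1 windows held neither. Among the 11 members that passed in lung, 1 promoter (9.09%) had GCGTG, against 20 of 45 promoters (44.4%) of members that were tested and did not pass, and 29.7% of all 33469 promoters in the table. TGACNNNGC stood in 2 of the 11 (18.2%), in 6 of the 45 (13.3%) and in 12.1% of all promoters. These are counts of letters in a window and were not tested.

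In lung, silica and air were compared 32 weeks after exposure. Of the 65 members tested, 10 fell and 1 rose at an adjusted p under 0.05 (limma, Benjamini-Hochberg over all 11285 probes). The share that fell was 15.4%, beside 8.53% of all probes, and the share that rose was 1.54%, beside 7.59% of all probes. In either direction 11 members passed, close to the background of 16.1%. The median log2 difference was −0.04 over the 65 members and −0.01 over all probes tested, and the members ranged from −0.55 to 0.26. All 6 silica lungs lay below all 6 air lungs for 7 members, beside 3.81% of all probes, and above them for none, beside 4.30%. At an unadjusted p under 0.05 there were 25 members, beside 28.8% of all probes. Among members with a mean log2 level of at least 8, 24 were tested, of which 7 fell and 1 rose, while 14.0% of all probes that bright fell and 11.4% rose (25.4% in either direction). Under that level, 3 of 41 members fell (7.32%) and none rose. The shares of all probes under that level are not given here, and at any level they were 8.53% and 7.59%.

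**Figure D1:**
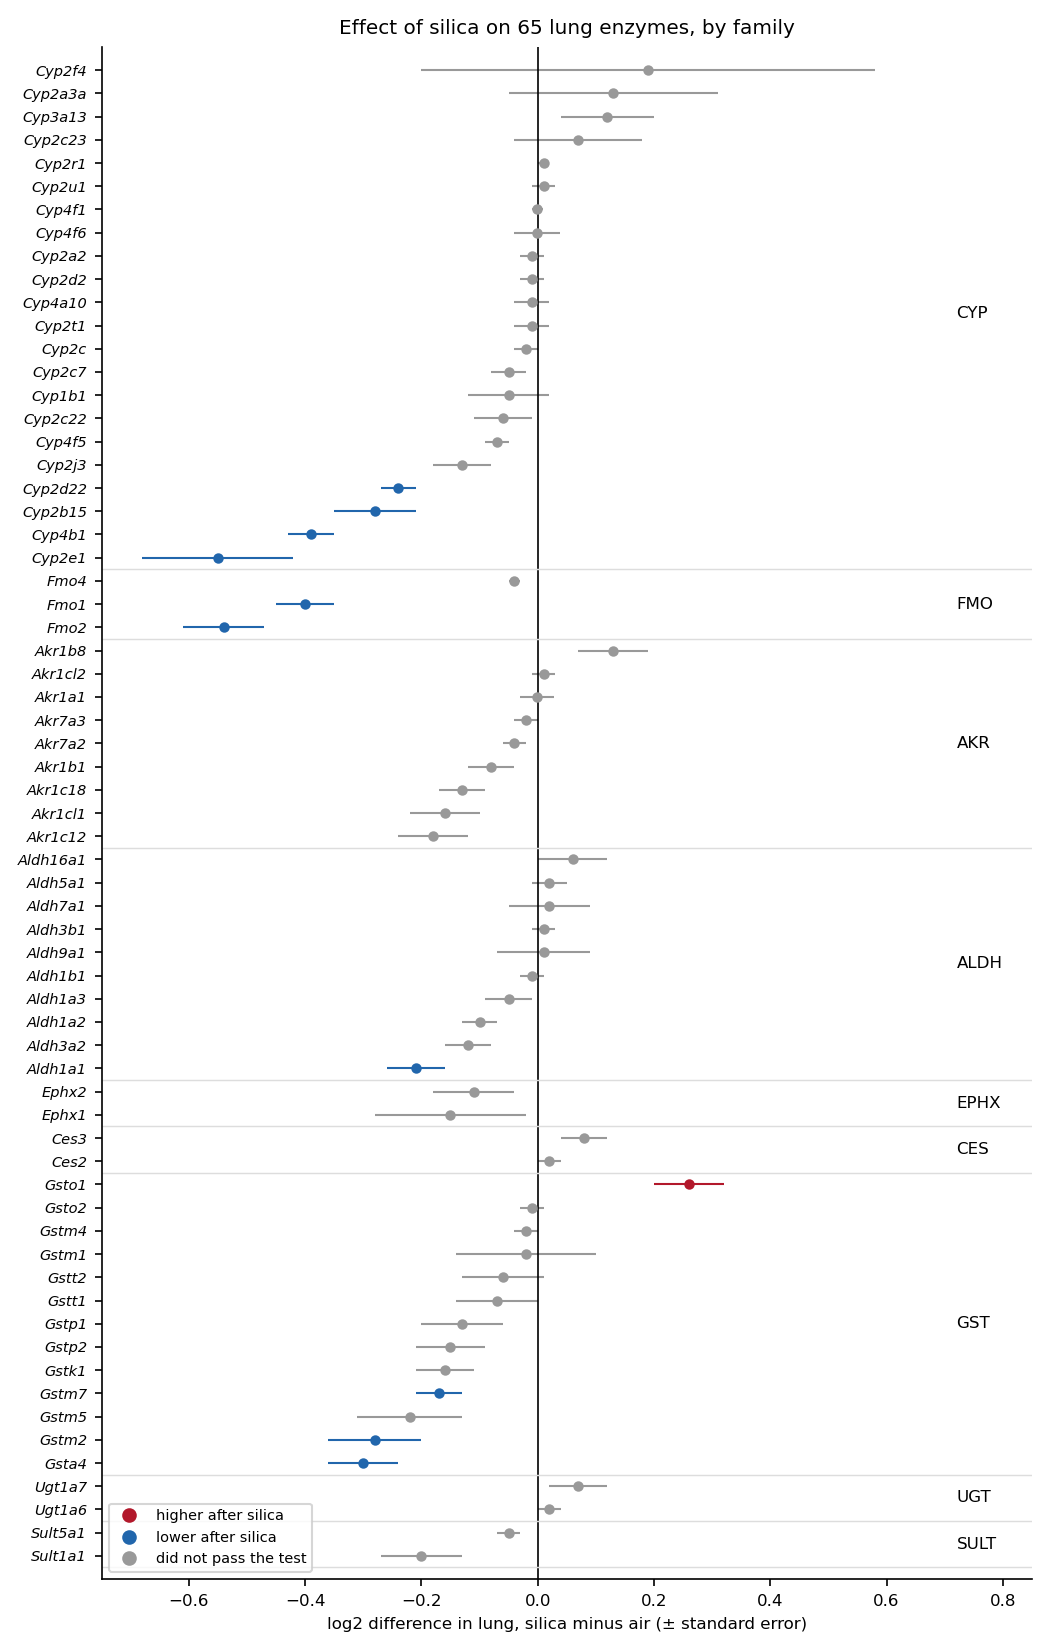
Log2 difference in lung, silica minus air (x axis, with standard error), for each of the 65 tested members, grouped by family along the y axis. The 10 members that fell lie between −0.55 and −0.17, and Gsto1, at 0.26, is the one that rose.

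P450s, the main oxidising enzymes, gave 4 falls (18.2%) and no rise among 22 tested, beside 8.53% and 7.59% of all probes. Cyp4b1, a lung P450 that oxidises fatty acids and activates some plant toxins, had a lowest, median and highest level of 12.33, 12.46 and 12.50 in silica lungs, against 12.76, 12.81 and 12.95 in air lungs. The groups did not overlap, and Cyp4b1 was 1.31-fold lower after silica (log2 difference −0.39 ± 0.04 SE, adjusted p = 0.000153). Cyp2d22, listed by RefSeq as Cyp2d4, was at 6.90, 6.93 and 7.03 in silica lungs and 7.10, 7.19 and 7.32 in air lungs. It too did not overlap, at 1.18-fold lower (adjusted p = 0.00115), although both groups were dim. Cyp2b15, a CYP2B enzyme, was at 12.13, 12.37 and 12.50 in silica lungs and 12.57, 12.59 and 12.76 in air lungs. It was lower in every silica lung than in any air lung, by 1.22-fold on average (adjusted p = 0.0147). Cyp2e1, which oxidises ethanol and small solvents, was at 9.11, 9.50 and 9.96 in silica lungs and 9.85, 10.07 and 10.25 in air lungs. It was 1.46-fold lower (log2 difference −0.55 ± 0.13 SE, adjusted p = 0.0165), with 1 silica lung inside the air range and a spread of 0.31 (SD, n = 6) in silica lungs beside 0.16 in air lungs. The other 18 P450s tested did not pass, and Cyp4f5 missed the threshold most narrowly (adjusted p = 0.0502).

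FMOs, which oxygenate nitrogen and sulfur atoms, were tested as 3 of 5 members and 2 fell, beside 8.53% of all probes. Fmo1 was at 10.95, 11.09 and 11.24 in silica lungs and 11.37, 11.51 and 11.58 in air lungs (lowest, median, highest). Fmo2 was at 9.0, 9.29 and 9.47 in silica lungs and 9.71, 9.78 and 9.98 in air lungs. Neither overlapped between the groups. Fmo1 was 1.32-fold lower (log2 difference −0.40 ± 0.05 SE, adjusted p = 0.00092) and Fmo2 1.46-fold lower (−0.54 ± 0.07 SE, adjusted p = 0.00103). Fmo4 did not overlap either but was very dim and did not pass, with a log2 difference of −0.04 (adjusted p = 0.0622). Fmo5 was detected on no array.

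**Figure D2:**
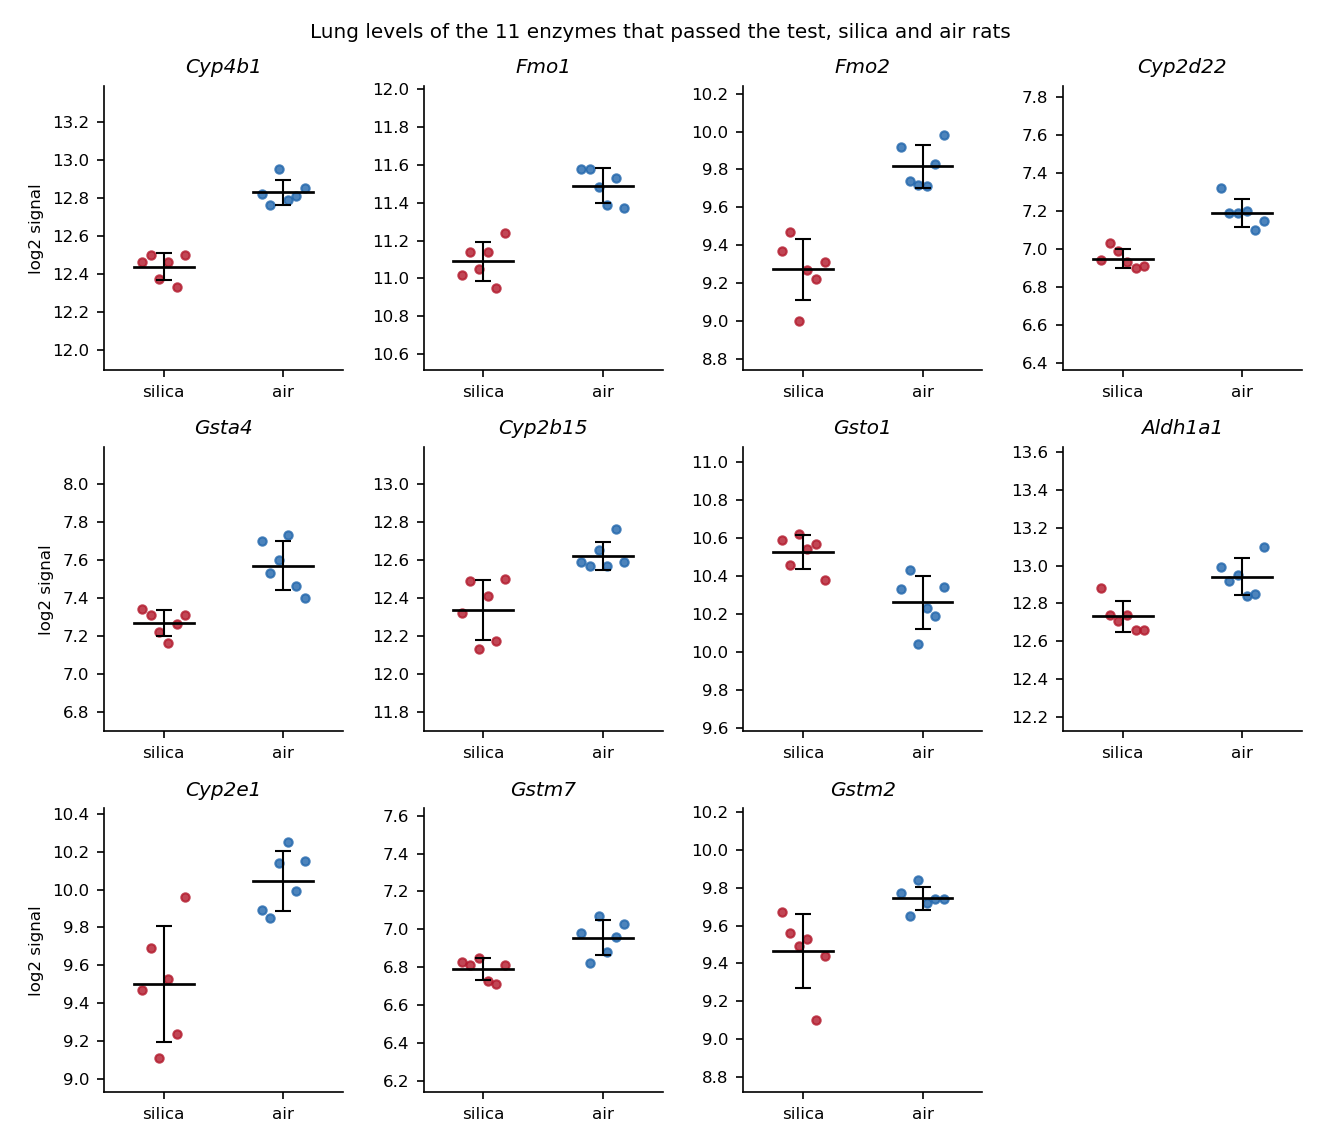
Log2 signal in each lung (y axis, same span in each panel) of the 11 members that passed, silica rats on the left and air rats on the right; points are rats, lines are means and bars are SD (n = 6). Cyp4b1, Fmo1, Fmo2, Cyp2d22, Gsta4 and Cyp2b15 do not overlap between the groups, while Gsto1, Aldh1a1, Cyp2e1, Gstm7 and Gstm2 do.

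Among the enzymes that convert aldehydes, ketones, epoxides and esters, 1 of 23 tested members fell and none rose, beside 8.53% and 7.59% of all probes. Aldh1a1, which oxidises retinal to retinoic acid, was at 12.66, 12.72 and 12.88 in silica lungs and 12.84, 12.93 and 13.10 in air lungs. It was 1.15-fold lower (adjusted p = 0.0159), with a small overlap, and did not pass with median scaling in place of quantile normalization (adjusted p = 0.46). Aldh16a1 averaged 9.76 in silica lungs and 9.70 in air lungs (adjusted p = 0.578). No aldo-keto reductase of 9 tested passed: aldehyde reductase Akr1a1 averaged 12.47 in both groups, and aldose reductase Akr1b1 averaged 12.25 in silica lungs and 12.34 in air lungs (adjusted p = 0.156). Ephx1, the microsomal epoxide hydrolase, averaged 9.09 and Ephx2, the soluble one, 8.21 in silica lungs, against 9.24 and 8.32 in air lungs, with adjusted p of 0.511 and 0.382. Carboxylesterase Ces3 (Ces1d in RefSeq) averaged 12.59 in silica lungs and 12.51 in air lungs (adjusted p = 0.217), and Ces2 was dim in both. Current RefSeq names tie 40 more probes to these families than the file symbols do. With them 81 were tested in lung, of which 13 fell and 1 rose, beside the 8.53% and 7.59% of all probes given above. The added ones that passed were Akr1c19, at 8.11 ± 0.18 in silica lungs and 8.94 ± 0.13 in air lungs (SD, n = 6; adjusted p = 0.000283), Akr1c14 (log2 difference −0.30) and Ephx4 (−0.12). Akr1c19 thus had a larger fall than any probe that the file symbols select.

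Glutathione S-transferases gave 3 falls (23.1%) and 1 rise (7.69%) among 13 tested, beside 8.53% and 7.59% of all probes. Gsta4, which conjugates aldehydes made by lipid peroxidation, was at 7.16, 7.28 and 7.34 in silica lungs and 7.40, 7.56 and 7.73 in air lungs. The groups did not overlap (1.23-fold lower, log2 difference −0.30 ± 0.06 SE, adjusted p = 0.00484). Of the mu class, Gstm2 was at 9.10, 9.51 and 9.67 in silica lungs and 9.65, 9.74 and 9.84 in air lungs, and Gstm7 at 6.71, 6.81 and 6.85 in silica lungs and 6.82, 6.97 and 7.07 in air lungs. Both overlapped slightly and passed with adjusted p of 0.0298 and 0.0205, but neither did with median scaling (0.174 and 0.144). The Gstm2 call was lost in 5 of the 12 fits that left out 1 array (without silica replicate 3, or air replicate 1, 3, 5 or 6), with an adjusted p of up to 0.067. Gstm1, Gstm4 and Gstm5 did not pass. Gsto1, an omega class enzyme that reduces dehydroascorbate and other oxidised substrates, went the other way. It was at 10.38, 10.55 and 10.62 in silica lungs and 10.04, 10.28 and 10.43 in air lungs, 1.20-fold higher after silica (log2 difference 0.26 ± 0.06 SE, adjusted p = 0.0159). Only the lowest silica lung lay inside the air range, and with median scaling the adjusted p was 0.215. Gstp1, the pi class enzyme, averaged 11.07 in silica lungs and 11.21 in air lungs (adjusted p = 0.206).

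Most glucuronide and sulfate transferases were not detected often enough in lung to be tested. Ugt1a7 and Ugt1a6 were the 2 UGTs tested of 13, at log2 differences of 0.07 and 0.02 that did not pass. Sult1a1, which sulfates phenols, averaged 11.22 in silica lungs and 11.42 in air lungs and missed the threshold (adjusted p = 0.0682), as did Sult5a1 at a difference of −0.05. Sult1a1 passed without silica replicate 5 or 6 (adjusted p = 0.0392 and 0.0455), with array weights (0.0453) and on the authors' normalized values (0.0382).

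Markers of cell types that make up the lung moved in the same samples, where 8.53% of all probes tested fell and 7.59% rose. Of probes with a mean log2 level of at least 8, 14.0% fell and 11.4% rose. Of the endothelial markers 5 of 6 tested fell, and their summed signal was 15087 to 20157 in silica lungs and 20485 to 24009 in air lungs. Of the alveolar type 1 markers 4 of 7 fell (24077 to 26166 in silica lungs, 27771 to 30492 in air lungs), and of the fibroblast markers 4 of 6 fell (14373 to 18034 in silica lungs, 18113 to 20777 in air lungs). Macrophage markers rose in 4 of 6 (16334 to 23212 in silica lungs, 8793 to 14162 in air lungs), and alveolar type 2 markers in 4 of 9 (56662 to 68139 in silica lungs, 52212 to 57796 in air lungs). Of 7 club and airway secretory cell markers, 1 rose, Sftpd (log2 difference 0.58, adjusted p = 0.0383), and none fell (19262 to 29715 in silica lungs, 19207 to 22549 in air lungs). The median log2 difference of the 7 was −0.02, and whether the Sftpd rise came from club cells was not tested. Scgb3a1 of that list varied widely and did not pass (10.09 ± 2.21 in silica lungs, 9.04 ± 1.16 in air lungs). Of 4 neutrophil markers tested, S100a8 rose (11.57 ± 0.39 in silica lungs, 10.43 ± 0.42 in air lungs, adjusted p = 0.00544). Mmp8, Cxcr2 and Csf3r were dim, averaging 6.58 to 6.76 in silica lungs and 6.52 to 6.66 in air lungs, and did not pass. The summed signal of the 4 did not overlap (2478 to 4981 in silica lungs, 1057 to 1967 in air lungs), but S100a8 made up most of it. Of 6 erythroid markers, Ahsp and Bpgm fell (36264 to 39717 in silica lungs, 37692 to 41497 in air lungs), and of 7 ciliated cell markers Tekt2 rose and Tppp3 fell (2815 to 4213 in silica lungs, 3254 to 4363 in air lungs). None of 5 muscle markers passed (1175 to 5282 in silica lungs, 1264 to 6851 in air lungs). No member of the hepatocyte list passed (267 to 476 in silica lungs, 273 to 417 in air lungs). Fewer cells of a type and less RNA per cell cannot be told apart in whole lung, and the part of these shifts in the enzyme results was not tested.

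Partners of these enzymes were taken from lists of regulators, cofactors and transporters. Their counts stand beside the 8.53% of all probes that fell in lung and the 7.59% that rose. Of 13 regulators tested, Nfil3, a clock-linked repressor, rose (8.32 ± 0.04 in silica lungs, 7.95 ± 0.14 in air lungs; adjusted p = 0.00178) and Nr1d1, a clock repressor, fell (7.64 ± 0.58 in silica lungs, 9.39 ± 0.41 in air lungs; adjusted p = 0.00175). Ahr averaged 9.58 in silica lungs and 9.82 in air lungs, and Nfe2l2 10.51 in silica lungs and 10.56 in air lungs, and neither passed (adjusted p = 0.0973 and 0.723). Among 5 electron donors, Cyb5r3, which reduces cytochrome b5, fell (log2 difference −0.35, adjusted p = 0.00461), and P450 reductase Por did not pass, at 9.87 in silica lungs and 9.84 in air lungs. In the supply of glutathione and NADPH, Pgd, an enzyme of the pentose phosphate pathway, rose by 0.46 (adjusted p = 0.00313) and no gene of that list fell. Of 22 related enzymes outside the families 5 fell and 1 rose. The falls were Inmt (−0.58), a methyltransferase also counted among the fibroblast markers, aldehyde oxidase Aox1 (−0.46), monoamine oxidase Maob (−0.30), quinone reductase Nqo2 (−0.27) and Mgst3 (−0.15), and the rise was the microsomal glutathione transferase Mgst1 (0.17). Nqo1, a known Nfe2l2 target, averaged 10.85 in silica lungs and 10.78 in air lungs and did not pass (adjusted p = 0.603). Of 11 transporters 3 fell (Slc22a5 by 0.29, Slco3a1 by 0.17 and Slc22a3 by 0.14), and of 7 other P450s Tbxas1, which makes thromboxane, rose by 0.55 while Ptgis, which makes prostacyclin, and Cyp27a1 fell by 0.42 and 0.17.

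Cyp2f4 and Cyp2a3a, airway P450s that activate naphthalene and nitrosamines, differed more between rats than between groups, by 0.19 ± 0.39 and 0.13 ± 0.18 on the log2 scale (silica minus air, SE; adjusted p = 0.807 and 0.695). The spread of Cyp2f4 within groups was 0.71 (pooled SD), at the 99.9th percentile of all probes tested in lung, where the median SD was 0.07. Cyp2f4 was at 9.39, 7.86, 8.83, 7.96, 8.73 and 7.54 in silica lungs (replicates 1 to 6), against 8.83, 8.17, 8.87, 6.96, 7.83 and 8.49 in air lungs. Silica lungs 1, 3 and 5 were the 3 highest of their group and air lung 4 the lowest of all. Cyp2a3a, with a pooled SD of 0.33, was at 7.62, 6.76, 7.47, 6.76, 7.17 and 6.72 in silica lungs, against 7.17, 6.92, 7.25, 6.58, 6.80 and 6.98 in air lungs. The same 3 silica lungs were highest and the 6 air lungs fell in the same order as for Cyp2f4. The airway secretoglobin Scgb3a1, picked after these values were seen, was at 12.76, 8.31, 11.94, 7.98, 11.54 and 8.03 in silica lungs and at 8.79, 9.07, 10.60, 7.05, 9.38 and 9.35 in air lungs, again with silica lungs 1, 3 and 5 apart. In air lungs Scgb3a1 did not keep the order of the P450s: air lung 1, among the highest for both P450s, was at 8.79, above air lung 4 alone. Scgb1a1, the main club cell secretoglobin, hardly varied, at 14.02 ± 0.03 in silica lungs and 14.05 ± 0.05 in air lungs (SD, n = 6). That level was close to the brightest of the marker lists, Hbb (14.24 in silica lungs, 14.22 in air lungs). Whether so bright a probe can show differences between rats was not tested. No correlation is given because the silica lungs fall into 2 sets of 3. How much airway each lung sample held was not tested.

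**Figure D3:**
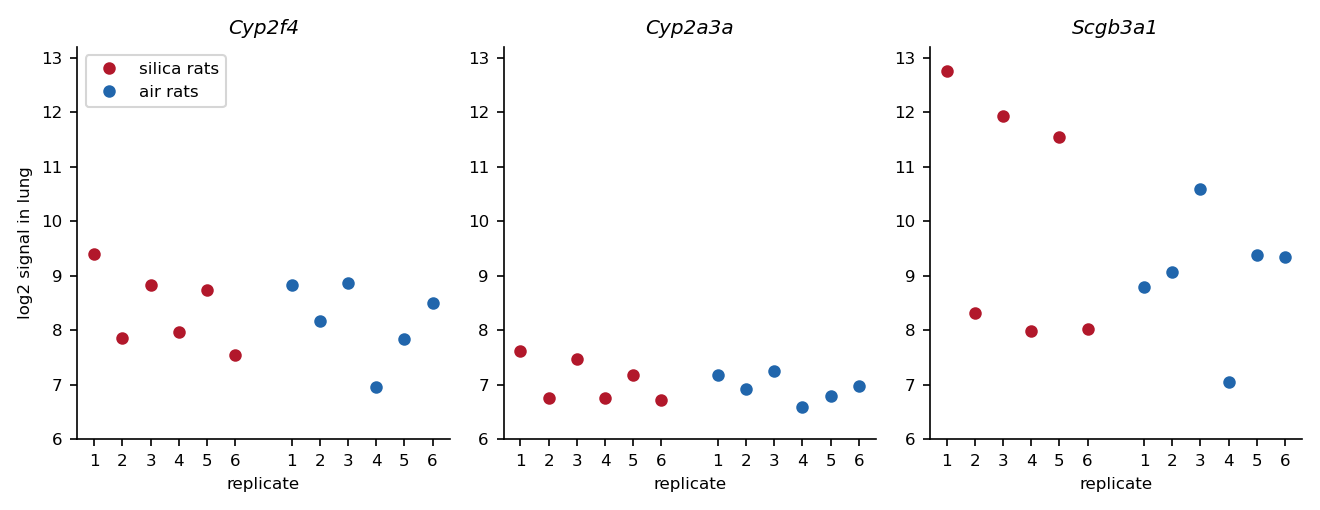
Log2 signal in lung (y axis) of the airway P450s Cyp2f4 and Cyp2a3a and of the airway secretoglobin Scgb3a1, for each silica rat and then each air rat by replicate number (x axis). Silica replicates 1, 3 and 5 are the highest of their group in all 3 panels, and air replicate 4 is the lowest of its group.

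In blood, no member passed among 33 tested, as no probe did among 7864 (limma, background 0%). At an unadjusted p under 0.05 there were 5 members, beside 8.65% of all probes. Gstm1 had the smallest p. It was at 6.83, 6.92 and 7.07 in silica bloods and 7.10, 7.15 and 7.28 in air bloods, and so did not overlap, as 0.216% of all probes did in that direction and 0.381% in the other, but its adjusted p was 0.127 (log2 difference −0.24 ± 0.04 SE). Without silica replicate 4 it passed (adjusted p = 0.0247). Gstp1 averaged 10.29 ± 0.24 in silica bloods and 10.68 ± 0.27 in air bloods, Gsto1 8.11 ± 0.11 in silica bloods and 8.33 ± 0.18 in air bloods, and Akr1a1 8.72 ± 0.12 in silica bloods and 8.99 ± 0.28 in air bloods (SD, n = 6 each). Their adjusted p ran from 0.431 to 0.557. Cyp4f18, a leukocyte P450, differed by 0.05 (adjusted p = 0.431). Without the 3 arrays that stood apart the count was 0 too.

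For the 30 members tested in both tissues, the blood level of each rat was subtracted from its lung level, and silica and air rats were compared on that difference. Here 1 member was higher and 1 lower, beside 2.24% and 1.26% of all 7594 probes (3.50% in either direction). The lung minus blood level of Gsto1 was 0.25, 0.51 and 0.68 in silica rats and −0.17, 0.06 and 0.25 in air rats (lowest, median, highest). The difference was 0.46 ± 0.09 (SE, adjusted p = 0.0112), made up of 0.29 in lung and −0.17 in blood on the joint scale. For Cyp2b15 the lung minus blood level was 5.44, 5.51 and 5.83 in silica rats and 5.80, 5.93 and 6.07 in air rats. The difference was −0.38 ± 0.08 (SE, adjusted p = 0.0131), with 1 silica rat inside the air range. It was made up of −0.38 in lung and −0.0018 in blood on the joint scale. In blood Cyp2b15 was near background, detected on 3 of 6 silica and 5 of 6 air arrays, so a fall there could hardly have been seen. The Gsto1 and Cyp2b15 differences also passed without the 3 rats whose blood arrays stood apart. Sult1a1, Gstm1 and Gsta4 came next and did not pass (adjusted p = 0.103, 0.109 and 0.118), although Gsta4 did without silica replicate 6 (0.028). Both calls were lost with median scaling in place of quantile normalization, where the adjusted p of Gsto1 was 0.591, and Cyp2b15 was also lost without background correction and with an intensity trend in the variance prior (up to 0.355).

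**Figure D4:**
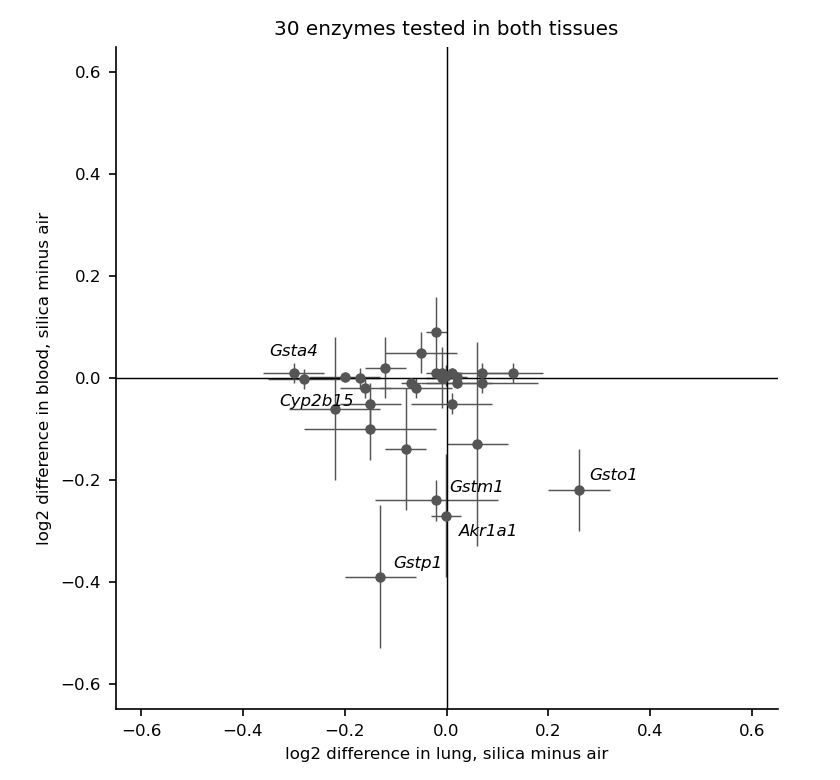
Log2 difference silica minus air in lung (x axis) and in blood (y axis) for the 30 members tested in both tissues, each with its standard error. Gsto1 is at 0.26 in lung and −0.22 in blood, and Cyp2b15 lies at −0.28 in lung and near 0 in blood, where its signal was near background.

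Lung and blood were compared in the 6 air rats, whose arrays also served in the comparisons above. Of 68 members tested, 38 were higher and 14 lower in lung, beside 39.0% and 35.8% of all 11555 probes (74.8% in either direction). Cyp4b1 averaged 12.81 ± 0.09 in lung and was not detected in any air blood, so it was at least 81.4-fold higher in lung, and likewise Ces3 was at least 59.8-fold and Fmo1 at least 24.2-fold higher. Aldh1a1 averaged 12.95 ± 0.12 in lung and 6.49 ± 0.09 in blood, where 1 of 6 arrays detected it, and Cyp2b15 averaged 12.53 ± 0.10 in lung and 6.59 ± 0.06 in blood (SD, n = 6).

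In the other direction, Akr7a3, an aldo-keto reductase that detoxifies aflatoxin dialdehyde, averaged 6.51 ± 0.02 in lung and 11.10 ± 0.10 in blood, 24.2-fold lower in lung. Cyp4a10, a fatty acid hydroxylase, averaged 6.64 ± 0.03 in lung and 8.10 ± 0.19 in blood, although Cyp4a1, a second probe of that RefSeq gene, was tested in neither tissue. Gstm5 (log2 difference −1.67), Gstp2 (−0.65) and Gstp1 (−0.51) were also lower in lung, but their sign turned with median scaling, to 0.15, 0.36 and 0.53. That scaling moved the median of all probes to 0.27, and the members then split into 51 higher and 5 lower. Of the member calls 8.93% were lower, beside 26.9% of member calls in the quantile-normalized data. The shares of all probes with median scaling are not given here, so the members cannot be set against them. Of the 5 members named as lower in lung, Akr7a3 and Cyp4a10 kept their sign, but the log2 difference of Cyp4a10 shrank to −0.20 with median scaling, against −1.46 with quantile normalization. Without the rats whose blood arrays stood apart, 34 members were higher and 11 lower in lung, again with no share of all probes given.

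**Figure D5:**
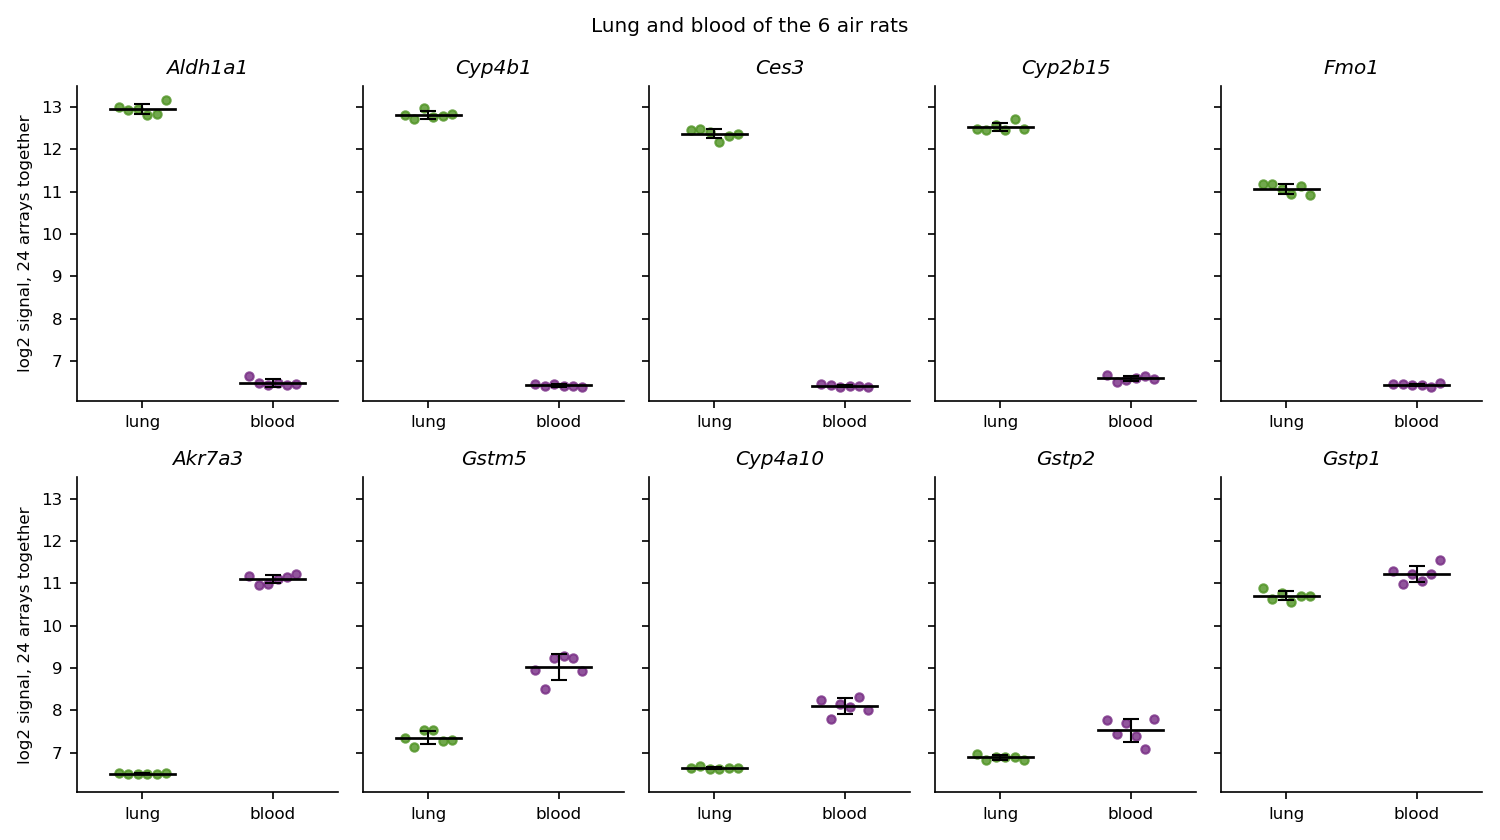
Log2 signal in lung (left) and blood (right) of the 6 air rats, after joint normalization of the 24 arrays, for the 5 members highest and the 5 lowest in lung against blood; points are rats, lines are means and bars are SD. Blood points of Cyp4b1, Ces3 and Fmo1 are at background, and the order of Gstm5, Gstp2 and Gstp1 turns with median scaling.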

How the data were processed

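RNA of 12 rats (lung and blood, 6 per group and tissue) was hybridised to Illumina BeadChips. Per the file headers, the authors deposited for each tissue the unnormalized linear intensity of every probe, with a detection p-value and number of beads. They also deposited normalized values, on a log2 scale for blood and as a score close to log2 at high signal for lung, used here as an alternative. The submitters' processing notes name BeadStudio, lumi and limma, without order. Of the rows, 683, 4 of them members, average several probes, and their detection p is then averaged too. The depth of an array is set by its 36 to 42 beads per probe (median per array), and the number of arrays limits the precision.

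In R 4.3.3 with limma 3.58.1, background was corrected by neqc (offset 16, negative controls inferred from detection p-values), and quantile normalization and log2 followed, over the 12 arrays of a tissue or all 24 for comparisons of tissues. Probes detected (p under 0.05) on at least 6 arrays were fitted with lmFit and eBayes, two-sided, with Benjamini-Hochberg adjustment over all of them and a threshold of 0.05. Lung and blood of a rat were paired by the rat number in the labels. Replicate numbers did not pair silica with air rats: correlations of same-numbered samples ran from −0.295 to 0.185 in lung and −0.457 to 0.625 in blood. Nothing beyond the rat numbers describes the replicates. The code was tested on simulated data.

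Within the families the members were picked by symbol alone, but the families and the marker and partner lists were chosen with earlier results of these data known. Named were all members that passed in lung (11), the 2 members of each family with the highest mean level, the 5 smallest p in blood and in the tissue difference, and the 5 largest differences each way between lung and blood. Gene names follow the file symbols, and 115 of 121 members matched RefSeq. The result for 1 gene of the partner lists is not reported here.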

Additional observations from a re-analysis of the deposited data

Results flagged for a closer look

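The effect of silica on Gsto1 differed between lung and blood: the lung minus blood level differed by 0.46 on the log2 scale between silica and air rats (limma, adjusted p = 0.0112). For Cyp2b15 it differed by −0.38 (adjusted p = 0.0131), but its blood signal was near background, where a fall could hardly have been seen. Neither passed with median scaling.

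In 56 groups of 6 samples of the named members, 2 samples lay far from the rest, and chance gives about 1 in 20 groups. Ugt1a7 was at 6.89 in the lung of air replicate 6, with the nearest other air lung at 6.71. Cyp4f18 was at 6.57 in the blood of silica replicate 1, with the nearest other silica blood at 6.53. Both members were dim, and neither passed the silica test.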

How the results depend on the processing

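In lung 11 members passed, and 9 to 16 did under the alternatives other than median scaling, which gave 7 (0 higher, 7 lower), and of counting only members with a mean log2 level of at least 8, which gave 8. Leaving out 1 array gave 10 to 14. Cyp4b1, Fmo1, Fmo2, Cyp2d22, Gsta4 and Cyp2e1 passed under every alternative. Calls were lost for Gsto1, Aldh1a1, Gstm7 and Gstm2 with median scaling, for Gstm2 also without the filter on dim probes, and for Cyp2b15 (adjusted p = 0.0771), Gsto1 and Gstm2 with the replicate number as a block (replicate block, 9 members). In blood the count stayed at 0 except for 1 (Gstm1) with the replicate block and 1 without silica replicate 4, so leaving out 1 array gave 0 to 1. For the difference between tissues, 2 members passed, against 1 without background correction, 0 with median scaling, 6 without the filter on dim probes, 1 with the stricter filter, 1 with an intensity trend and 3 with the replicate block, and 2 to 3 when 1 rat was left out. For lung against blood, 52 passed, and 45 to 56 under the alternatives (48 to 53 without 1 rat). The signs of 3 members turned there with median scaling: Gstm5 to 0.15, Gstp2 to 0.36 and Gstp1 to 0.53. The causes were not tested. Over the named members, 763 of 791 alternative values kept direction and side of the threshold, 17 lost the call, 8 gained it and 3 reversed. A chip block and the authors' values for comparisons of tissues were not run, since chips are not named in the files used and the 2 tissues' deposited values are on different scales. Dim members are limited by signal over background.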
